A study of Rattus norvegicus with 65 samples.

Results

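Roux-en-Y gastric bypass (RYGB) surgery was compared with a combination of gut hormone drugs, PYY3-36 + liraglutide, in the hypothalamus of obese rats. Every sample labelled Bypass or PYY_Lira was taken, which gave 24 of the 65 samples of the series, with 14 RYGB-treated and 10 PYY3-36 + liraglutide-treated animals. Each sample was the poly-A RNA of the hypothalamus of 1 rat. All animals were male Wistar rats of 9 to 10 weeks at the start that had eaten a high-fat diet for 6 weeks, and their brains were removed at 4 weeks of treatment or recovery, when the animals had fasted for 10 h. RYGB-treated animals had the stomach divided into a small pouch that was joined to the intestine, under general anaesthesia. PYY3-36 + liraglutide-treated animals had 0.4 mg/kg/day of liraglutide by daily injection and 0.1 mg/kg/day of PYY3-36 from a pump under the skin. Batch A, as labelled, held 11 RYGB-treated and 5 PYY3-36 + liraglutide-treated animals and batch B held 3 and 5. Surgery had its own control group of sham-operated animals and the hormones had one of saline-treated animals, so a direct difference between both treatments also holds the difference between an operation and repeated injection. The whole hypothalamus was homogenised, and single nuclei cannot be told apart. In such bulk tissue, fewer cells of a type and less RNA per cell cannot be told apart either.

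RYGB raises the release of several gut hormones after a meal, and both glucagon-like peptide 1 (GLP-1) and PYY3-36 are among them. Liraglutide is a long-acting GLP-1 analogue that binds the GLP-1 receptor (Glp1r), and PYY3-36 binds mainly the neuropeptide Y receptor Y2 (Npy2r). In the arcuate nucleus of the hypothalamus, neurons with agouti-related peptide (Agrp) and neuropeptide Y (Npy) promote feeding, whereas neurons with the melanocortin precursor Pomc and the peptide of the gene Cartpt reduce it. Both kinds of neuron read leptin through its receptor (Lepr) and act on melanocortin receptors (Mc3r, Mc4r) downstream.

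Counts on genes ran from 23043055 to 36539941 per animal, with a median of 28767613 in RYGB-treated and 28034521 in PYY3-36 + liraglutide-treated animals, of 29683943 in batch A and of 25348915 in batch B. Levels below are CPM, counts scaled to library size with TMM. All 23 transcription factors of a list that marks hypothalamic territories (such as Tbx3 and Foxb1) were measured, and their summed level ran from 61.8 to 285 CPM in RYGB-treated and from 120 to 220 CPM in PYY3-36 + liraglutide-treated animals. The lowest sum belonged to RYGB replicate 6. The same library had the highest sum of choroid plexus genes (4170 CPM, against a group median of 300.3), of cortical and hippocampal genes (3593 against 424 CPM) and of immediate early genes (1604 against 353 CPM). Libraries of RYGB replicates 8 and 13 carried 132 and 114 CPM of 17 hepatocyte genes, while no PYY3-36 + liraglutide-treated animal had more than 15.9 CPM. RYGB replicate 3 had the highest sum of 9 cerebellar genes, 460 CPM against a group median of 144. Striatal genes stood apart in the other group, with a median of 1345 CPM in PYY3-36 + liraglutide-treated and 617 CPM in RYGB-treated animals. The part of these other tissues in the results was not tested. Values without RYGB replicates 2, 3, 6, 8 and 13, which were picked after seeing the data for their counts of cerebellar, choroid plexus or hepatic genes, stand beside some genes that were high in them. For genes of those same tissues, a smaller value without these libraries follows from the way they were picked.

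**Figure D1:**
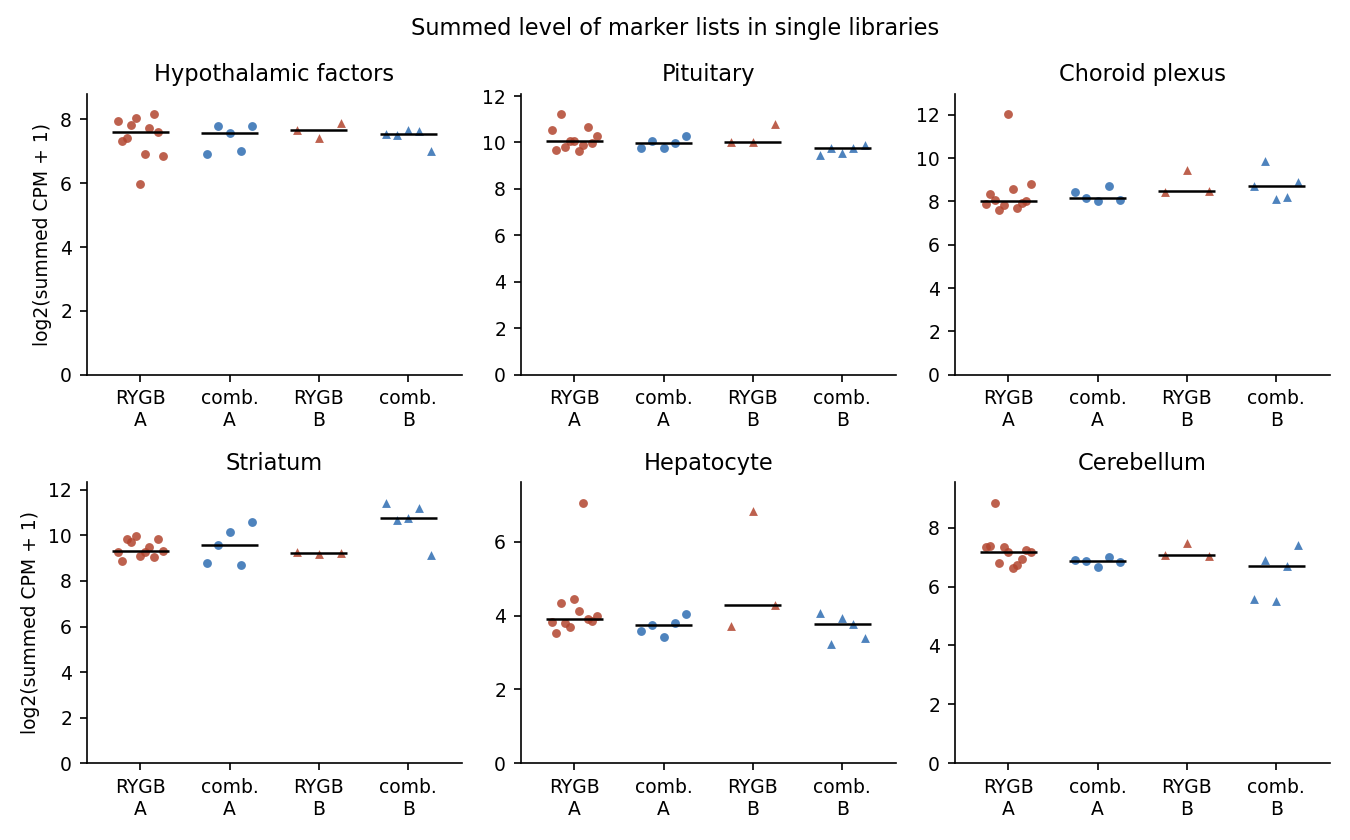
Summed CPM of 6 marker lists in each library, as log2 of the sum plus 1, for RYGB-treated (red) and PYY3-36 + liraglutide-treated animals (blue) of batch A (circles) and batch B (triangles), with black lines at the medians. Single RYGB libraries stand above the rest for choroid plexus (4170 CPM), hepatocyte (132 and 114 CPM) and cerebellar genes (460 CPM), and the PYY3-36 + liraglutide libraries of batch B reach the highest sums of striatal genes, up to 2761 CPM.

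No gene was called different between RYGB-treated and PYY3-36 + liraglutide-treated animals. Of 21871 genes, 0 (0% higher and 0% lower) were called by edgeR's quasi-likelihood test, with p adjusted after Benjamini-Hochberg and under 0.05 and a log2 fold change beyond ±1, and 0 passed the adjusted p alone. The smallest adjusted p was 1 after rounding, so no gene below is described as changed in this comparison. At an unadjusted p under 0.05 there were 565 genes, 430 higher (1.97%) and 135 lower (0.617%) in RYGB-treated animals. The count was 939 without PYY3-36 + liraglutide replicate 1. DESeq2 called 4 genes and, with shrunken fold changes, 1 gene, and limma-voom called 0 with 1944 genes at an unadjusted p under 0.05. The lowest to highest values of both groups overlapped for every gene tested (0% without overlap). The median log2 fold change over all genes was 0.01.

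The data limited how large a difference could have been for most genes. The 95% interval of the log2 fold change lay within ±1 for 17253 genes (78.9%), within ±0.5 for 11939 genes (54.6%) and within ±2 for 20881 genes (95.5%). The estimate lay 0.33 from either limit in the median gene. Intervals were wide for the genes of small nuclei, as the 22 core feeding genes show, of which 6 had an interval within ±1.

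**Figure D2:**
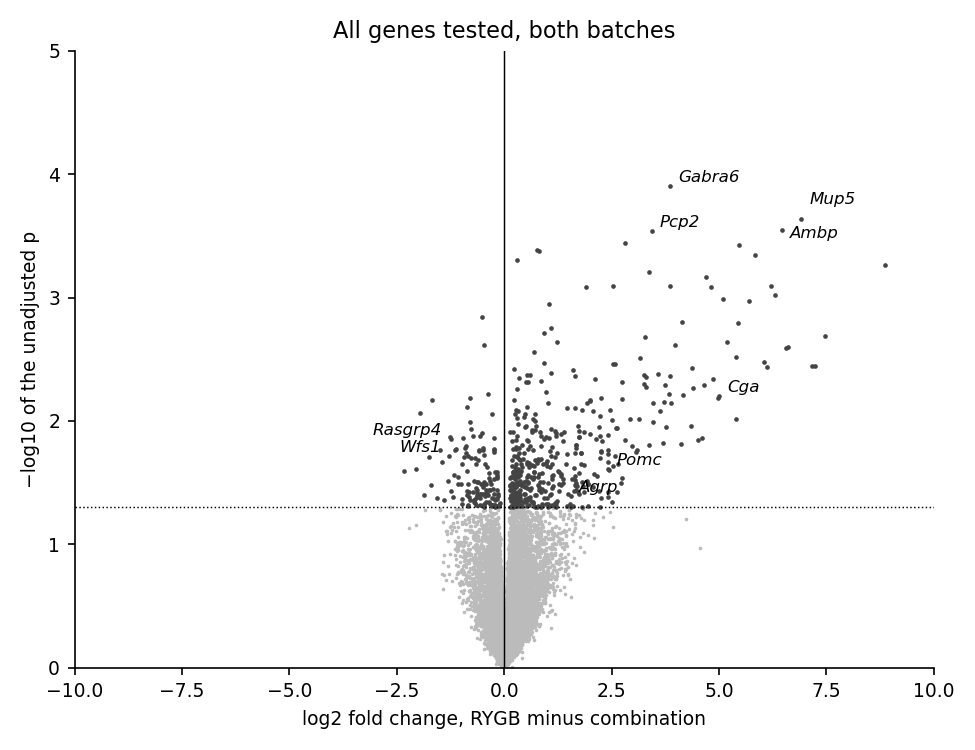
Log2 fold change between RYGB-treated and PYY3-36 + liraglutide-treated animals (positive is higher after RYGB) against −log10 of the unadjusted p for 21871 genes, with the dotted line at p = 0.05. Of the 565 genes above the line (dark points), 430 lie to the right, and the genes farthest up and right include Gabra6, Pcp2, Mup5 and Ambp, which were high in single RYGB libraries.

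Among the arcuate peptides, Pomc and Agrp had the largest differences, and both groups overlapped widely. Pomc (chromosome 6, 28382937 to 28388771 of Rnor_6.0), the precursor of the melanocortins, ran from 1.65 over a median of 68.4 to 1005 CPM in RYGB-treated animals and from 2.50 over 7.28 to 116 CPM in PYY3-36 + liraglutide-treated animals. Its log2 fold change was 2.41 (SE 1.04, 95% interval 0.32 to 4.50, unadjusted p = 0.024), and 2.23 without RYGB replicates 2, 3, 6, 8 and 13. Agrp (chromosome 19, 37525941 to 37584875), the natural antagonist of the melanocortin receptors, ran from 0.257 over 1.95 to 19.2 CPM and from 0.288 over 0.727 to 6.96 CPM, with a log2 fold change of 1.55 (SE 0.74, interval 0.07 to 3.02, p = 0.041). Peptides with opposite effects on feeding thus both had higher medians in RYGB-treated animals. RYGB replicates 1, 3 and 9 of batch A, at 15.2, 7.87 and 19.2 CPM of Agrp and 197, 1005 and 199 CPM of Pomc, and replicate 14 of batch B, at 10.6 and 227 CPM, held the highest values of both genes among RYGB-treated animals. PYY3-36 + liraglutide replicates 2 and 5 were high in their group, with 5.57 and 6.96 CPM of Agrp and 90.9 and 116 CPM of Pomc.

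The same libraries were high in genes of the pituitary. Cga, the common subunit of the pituitary glycoprotein hormones, reached 216, 380, 321 and 351 CPM in RYGB replicates 1, 3, 9 and 14 and 22.5 and 55.0 CPM in PYY3-36 + liraglutide replicates 2 and 5. It was 66.8 CPM or lower in the other RYGB-treated and 2.79 CPM or lower in the other PYY3-36 + liraglutide-treated animals. Tshb, the specific subunit of thyroid-stimulating hormone, was at 0 in 4 RYGB libraries and in 6 PYY3-36 + liraglutide libraries and reached 129 and 18.9 CPM. Of 15 pituitary genes tested, 4 were higher and 0 lower at an unadjusted p under 0.05, against 1.97% and 0.617% of all genes. The list had a median log2 fold change of 0.74 and 14 values above 0. The list's median was 0.18 over 9 genes tested within batch A, with 0 at that p, and 2.54 over 8 genes within batch B, with 6 higher. Over all genes of batch B, 8.46% were higher at that p and 7.35% lower. The summed level of the list ran from 802 to 2372 CPM in RYGB-treated and from 714 to 1256 CPM in PYY3-36 + liraglutide-treated animals, and 0 of its genes were at 0 in all 24 libraries. With scores of pituitary, choroid plexus and meningeal genes as covariates, the log2 fold change was 0.24 for Pomc, 0.20 for Agrp and 0.78 for Cga. Pomc and Cga are members of the pituitary list, so their smaller values follow in part from how the score was built.

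Npy and Cartpt had values near 0. Npy, which drives feeding, ran from 6.5 over 13.5 to 27.3 CPM in RYGB-treated and from 7.60 over 13 to 24 CPM in PYY3-36 + liraglutide-treated animals (log2 fold change 0.19, interval -0.55 to 0.93). Cartpt, which restrains it, ran from 23.4 over 143 to 230 CPM and from 53.0 over 85.1 to 262 CPM (0.24, interval -0.78 to 1.26). Neither gene separated the groups, and both intervals include 0.

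**Figure D3:**
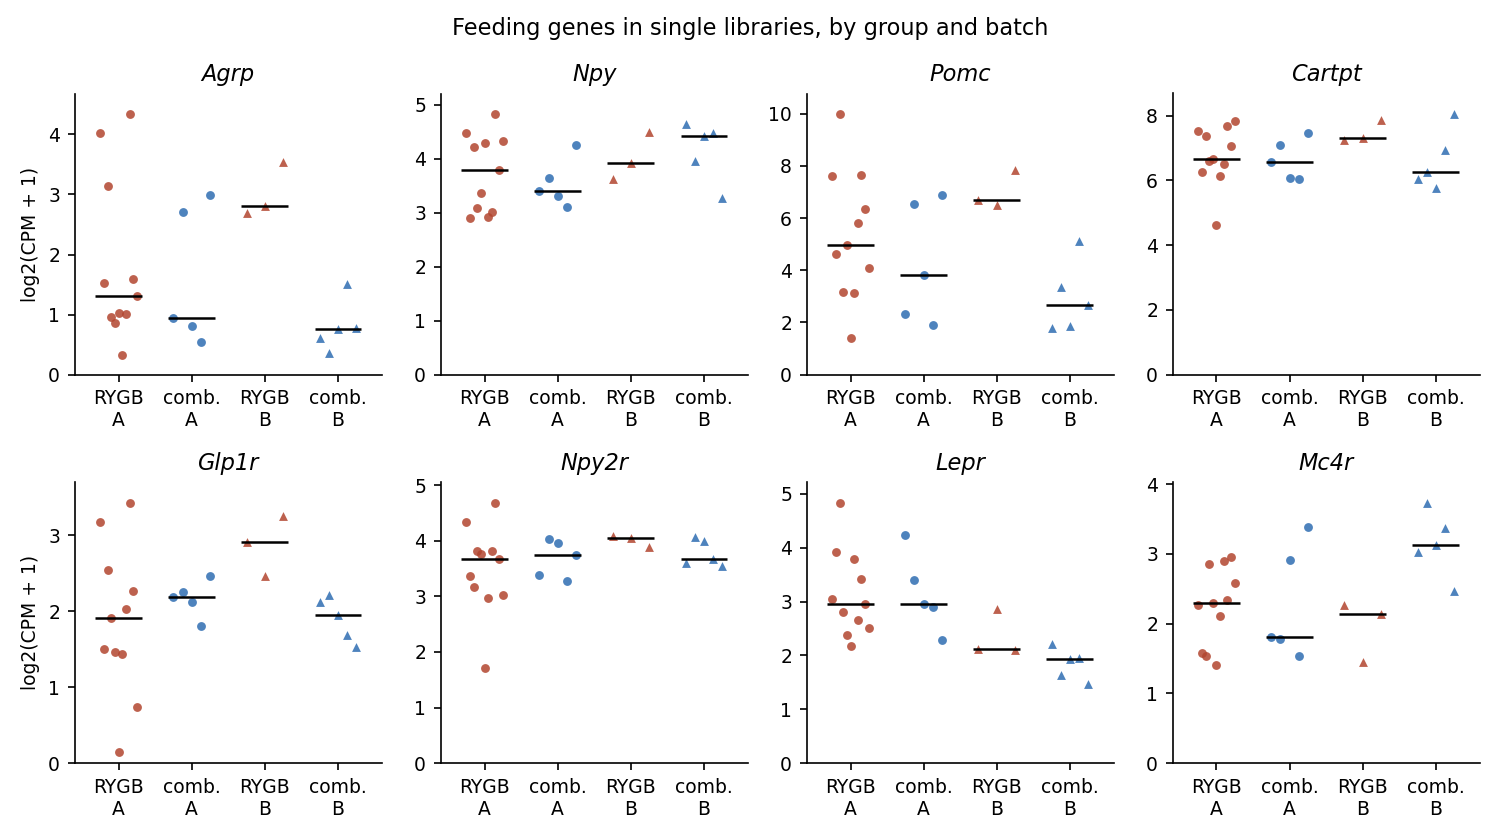
Levels of 8 feeding genes in each library, as log2(CPM + 1), for RYGB-treated (red) and PYY3-36 + liraglutide-treated animals (blue), by batch A (circles) and batch B (triangles), with black lines at the medians. The groups overlap in batch A for each gene, whereas in batch B the 3 RYGB libraries lie above the 5 PYY3-36 + liraglutide libraries for Agrp (5.49 to 10.6 against 0.288 to 1.84 CPM) and Pomc (89.7 to 227 against 2.50 to 33.5 CPM). With 3 against 5 animals, 5.71% of all genes tested lay wholly above in RYGB-treated animals of that batch.

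Other feeding peptides varied more between animals than between groups. Of 31 peptide genes tested, 3 were higher (Nmu, Pomc and Agrp) and 1 was lower (Nts) at an unadjusted p under 0.05, with a median log2 fold change of 0.17. Nmu, which encodes neuromedin U, an inhibitor of feeding, ran from 0.0359 over 1.27 to 32.4 CPM and from 0 over 0.553 to 5.38 CPM (2.74, interval 0.87 to 4.61). It too peaked in RYGB replicates 14, 3, 9 and 1, at 32.4, 19.9, 17.2 and 13.9 CPM. Nts, the precursor of neurotensin, had 7.51 over 19.9 to 34.0 CPM in RYGB-treated and 21.4 over 36.7 to 62.6 CPM in PYY3-36 + liraglutide-treated animals (-0.64, interval -1.25 to -0.03). The lateral hypothalamic peptides had very wide ranges. Pmch, which encodes melanin-concentrating hormone, ran from 109 over 660 to 2388 CPM and from 4.14 over 688 to 6173 CPM (-0.56, interval -2.58 to 1.46), and Hcrt, which encodes the orexins, from 4.99 over 96.3 to 234 CPM and from 0.567 over 75.5 to 787 CPM (-0.94, interval -2.96 to 1.07). The hypothalamic hormones and peptides Trh (0.17), Crh (-0.31), Avp (0.16), Oxt (-0.13), Gal (0.17) and Bdnf (0.49) all had intervals that include 0. Among 10 neuroendocrine genes, 1 was higher at an unadjusted p under 0.05, Ghrh, which encodes growth hormone-releasing hormone, with 0.430 over 4.14 to 10.4 CPM against 0.669 over 1.41 to 4.20 CPM (1.27, interval 0.08 to 2.46). Ghrh was also high in RYGB replicates 1, 14, 3 and 9, at 10.4, 8.27, 7.87 and 7.23 CPM, and in replicate 12, at 7.29 CPM. PYY3-36 + liraglutide replicates 5 and 2 were the highest of their group, at 4.20 and 4.08 CPM. Kiss1, which encodes kisspeptin, had a value of 1.43 (interval -0.16 to 3.02).

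The receptors of both drugs did not separate the groups. Glp1r (chromosome 20, 9586075 to 9626228) ran from 0.108 over 3.46 to 9.76 CPM in RYGB-treated and from 1.88 over 3.35 to 4.54 CPM in PYY3-36 + liraglutide-treated animals, and its log2 fold change was 0.36 (SE 0.44, interval -0.53 to 1.24). Npy2r (chromosome 2, 181528949 to 181538145) ran from 2.26 over 12.8 to 24.7 CPM and from 8.72 over 12.1 to 15.8 CPM (-0.06, SE 0.28, interval -0.63 to 0.50). RYGB-treated animals spread wider than the other group for both receptors, on either side of it. Of 24 gut hormone receptors, 0 passed an unadjusted p of 0.05 in either direction and the median was 0.05. Their 2 smallest p-values belonged to Glp2r, the receptor of GLP-2 (1.13, interval -0.17 to 2.44), and Ghsr, the receptor of ghrelin (0.89, interval -0.17 to 1.95). The Y receptors Npy1r (0.04), Npy5r (-0.05) and Npy4r (0.28) and the calcitonin receptor Calcr (0.15) had intervals that include 0. Of 8 genes for gut hormones and the enzymes that cut them, 1 was higher at an unadjusted p under 0.05: Prcp, a peptidase that inactivates a melanocortin, with 8.68 over 13.8 to 19.1 CPM against 10.5 over 12.4 to 14.9 CPM (0.26, interval 0.03 to 0.49). Dpp4, the enzyme that inactivates GLP-1, had a value of 0.78 (interval -0.44 to 2).

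The melanocortin, leptin and insulin receptors act downstream of these peptides and hormones, and both groups overlapped for each. Mc4r, whose signal reduces feeding, ran from 1.65 over 3.80 to 6.74 CPM in RYGB-treated and from 1.90 over 6.87 to 12.3 CPM in PYY3-36 + liraglutide-treated animals (-0.59, interval -1.25 to 0.06). Mc3r ran from 0.47 over 4.85 to 8.09 CPM and from 0.893 over 2.50 to 6.08 CPM (0.67, interval -0.46 to 1.81). Of 10 melanocortin genes tested, 2 were higher (Pomc and Agrp) and 0 lower at an unadjusted p under 0.05. Lepr ran from 3.31 over 6.15 to 27.6 CPM and from 1.78 over 3.78 to 17.8 CPM (0.38, interval -0.32 to 1.09, and 0.04 without RYGB replicates 2, 3, 6, 8 and 13). Replicates 3 and 2 had the highest Lepr of the RYGB-treated animals, at 27.6 and 14.2 CPM, so the smaller value follows in part from leaving them out. Both also had the highest sums of meningeal genes in that group, 20930 and 9475 CPM. In the other group, replicate 1 was highest in Lepr (17.8 CPM) and in meningeal genes (9041 CPM). RYGB replicate 11 had 4.72 CPM of Lepr at a meningeal sum of 5286 CPM. The part of meningeal tissue in the Lepr values was not tested. Insr, the insulin receptor, ran from 5.05 over 19.4 to 28.2 CPM and from 6.06 over 17.0 to 30.1 CPM (-0.10, interval -0.55 to 0.35).

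**Figure D4:**
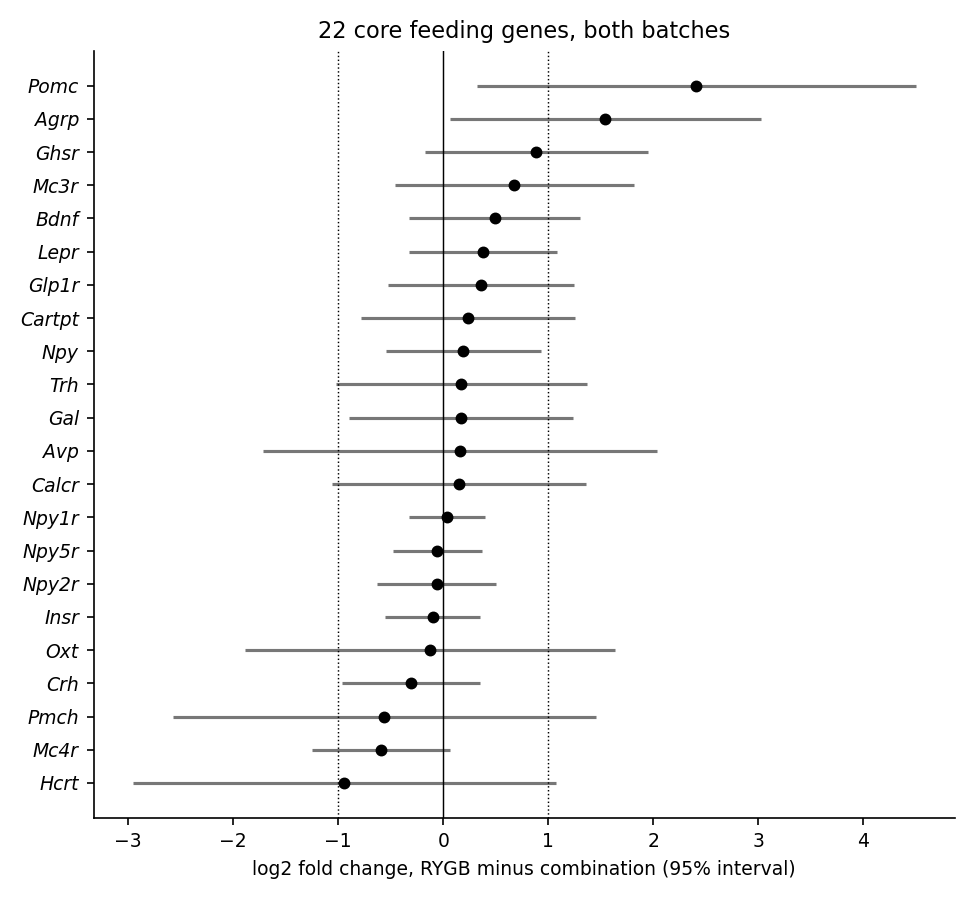
Log2 fold change (points) and 95% interval (lines) between RYGB-treated and PYY3-36 + liraglutide-treated animals for 22 core feeding genes, from all libraries with batch as a term, with dotted lines at ±1. The intervals of Pomc (0.32 to 4.50) and Agrp (0.07 to 3.02) lie above 0 before adjustment, and those of the other 20 include 0.

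Signalling pathways of leptin and insulin gave narrow intervals. Of 24 leptin and JAK-STAT genes, 22 had an interval within ±1, 1 was higher at an unadjusted p under 0.05 and the median was 0.05. Its higher gene was Socs1, a feedback inhibitor of cytokine signalling, with 0.933 over 1.94 to 3.34 CPM against 0.904 over 1.28 to 2.54 CPM (0.47, interval 0.08 to 0.85), while its relative Socs3, which restrains leptin signalling, had a value of 0.43 (interval -0.19 to 1.05). All 20 insulin and PI3K-Akt genes (median -0.06, 0 at an unadjusted p under 0.05, Mtor -0.12 and Pik3r1 0.12) and all 12 AMPK genes (median -0.02, 0 at that p, Prkab2 -0.20 and Acacb 0.20) had intervals within ±1. Among 27 genes of cAMP signalling, through which Glp1r acts, 1 was lower at an unadjusted p under 0.05: Pde10a, a phosphodiesterase abundant in the striatum, with 3.31 over 17.2 to 36.4 CPM against 4.65 over 36.9 to 84.2 CPM (-1.18, interval -2.23 to -0.14). Prkar2b, a regulatory subunit of protein kinase A, followed with -0.43 (interval -0.90 to 0.03).

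Transmitter receptors and genes that the study singled out were also examined. In the 28 receptors of the families it named, 0 genes passed an unadjusted p of 0.05 (median 0.09, smallest p for Mc4r and for Vipr2, a receptor of vasoactive intestinal peptide, at 0.29). The serotonin receptors Htr1b (-0.18, interval -0.88 to 0.53), Htr2a (-0.39, -1.19 to 0.41) and Htr5a (-0.08, -0.59 to 0.42), the glycine receptor subunits Glra1 (0.20, -0.63 to 1.04), Glra3 (0.10, -0.74 to 0.95) and Glra4 (-0.38, -1 to 0.25) and the prolactin receptor Prlr (0.36, -0.59 to 1.30) had intervals that include 0. So did the fatty acid receptor Ffar4 (0.33, -1.25 to 1.92), urocortin Ucn (-0.10, -1.62 to 1.43), Tph2, which makes serotonin in neurons (-0.14, -0.89 to 0.60), and the melanocortin receptor accessory protein Mrap (-0.25, -1.83 to 1.32), each with low counts. In the serotonin and monoamine list of 25 genes, 1 was higher and 0 lower at an unadjusted p under 0.05, and the list median was -0.13. The serotonin receptor Htr1f of that list had a value of -1.11 (interval -2.23 to 0.01). The list of 38 GABA and glutamate receptor genes had 0 genes at that p and a median of -0.15 (Grin2b -0.48 and Grm5 -0.62).

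Genes of energy metabolism and protein synthesis had narrow intervals with both batches in the fit. All 77 genes of oxidative phosphorylation had intervals within ±1 and 0 passed an unadjusted p of 0.05, with values between -0.13 and 0.14 and a median of 0.03. Ndufs1 and Ndufb11, subunits of complex I, had values of -0.13 and 0.10. The subunits of succinate dehydrogenase had narrow intervals, of -0.17 to 0.17 for Sdhb, -0.17 to 0.15 for Sdhc and -0.17 to 0.23 for Sdhd. All 75 ribosomal protein genes had values above 0, between 0.06 and 0.24, and none passed an unadjusted p of 0.05. Within batch B, the value was above 0 for 19 of the 75, so that the list had a median of -0.07 there and of 0.24 in batch A. The oxidative phosphorylation list turned likewise, with a median of 0.16 in batch A, where 74 of 77 values were above 0, and of -0.20 in batch B, where 1 was. At an unadjusted p under 0.05, 0 of its genes passed in batch A. In batch B, 28 of them were lower at that p, against 7.35% of all genes.

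Stress and activity genes had values mostly above 0 with both batches in the fit. Of 19 immediate early genes, 2 were higher and 0 lower at an unadjusted p under 0.05, with a median of 0.37. Of all genes in that fit, 1.97% were higher and 0.617% lower at that p. Nr4a1, a nuclear receptor induced by neuronal activity, ran from 7.33 over 22.7 to 147 CPM and from 8.39 over 16.0 to 29.6 CPM (1.02, interval 0.01 to 2.02), with its highest value in RYGB replicate 6 and a value of 0.86 without RYGB replicates 2, 3, 6, 8 and 13. Dusp1, a phosphatase induced by stress, ran from 23.6 over 37.9 to 127 CPM and from 19.2 over 31.9 to 55.1 CPM (0.70). The list's median was 0.73 in batch A, where all 19 values were above 0 and 6 were higher at an unadjusted p under 0.05. Over all genes of batch A, 156 of 20208 passed that p in either direction. RYGB replicate 6 had the highest sum of the list, 1604 CPM, against a median of 471 CPM in RYGB-treated animals of batch A. In batch B the list's median was -0.74, and 3 values were above 0. At that p, 1 gene was higher and 10 were lower in batch B, against 8.46% and 7.35% of all genes. Of 17 glucocorticoid-induced genes, 4 were higher and 0 lower at that p (median 0.27), led by Cdkn1a, an inhibitor of the cell cycle (0.63, interval 0.07 to 1.2), and Nfkbia, an inhibitor of NF-κB (0.37, interval 0.03 to 0.70). By batch, the median of these genes was 0.36 (batch A) and -0.06 (batch B). In the lists of endoplasmic reticulum stress and of inflammation, 1 of 19 and 2 of 22 genes were higher and none was lower, among them Herpud1 (0.18, interval 0.00 to 0.36), Nfkbia and the chemokine Ccl2 (1.06, interval 0.05 to 2.06), while Xbp1 had a value of 0.12.

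Metabolic, clock and thyroid genes gave no gene at an unadjusted p under 0.05. The medians were 0.02 for 25 genes of cholesterol and fatty acid synthesis (Acly -0.26 and Scd2 0.11), 0.11 for 19 clock genes (Nfil3 0.33 and Rorb 0.23) and 0.05 for 13 genes of the thyroid axis (Dio3 -1.10 and Hr 0.20). Every gene of the first 2 lists had an interval within ±1. In batch B, 23 of the 25 synthesis genes were above 0 (median 0.22, 7 higher at that p), against 4 of 25 in batch A (median -0.07, 0 at that p). Of all genes in batch B, 8.46% were higher at that p.

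With both batches in the fit, markers of glia and vessels had values near 0, and those of the ventricle lining and membranes had values mostly above 0. The medians of 12 microglial (0.04, C1qb 0.19 and Trem2 0.15), 13 oligodendrocyte (0.00, Opalin -0.15 and Mobp 0.20) and 14 endothelial genes (0.09, Esam 0.19 and Abcc9 0.21) were near 0, and no gene of them passed an unadjusted p of 0.05. Of 12 astrocyte genes, 2 were higher (median 0.11), Gjb6, which encodes connexin 30, at 0.46 (interval 0.04 to 0.88) and S100b at 0.20 (interval 0.00 to 0.40). The astrocyte list differed with the batch, with 12 of 12 genes above 0 in batch B (median 0.38, 9 higher at an unadjusted p under 0.05) and 6 of 12 in batch A (median -0.01, 0 at that p). Of all genes in batch B, 8.46% were higher at that p. The oligodendrocyte and microglial lists had 1 of 13 and 2 of 12 genes above 0 in batch B, against 6 and 9 in batch A. Of 15 tanycyte and ependymal genes, 1 was higher (median 0.53), Col23a1, with 4.31 over 11.2 to 43.1 CPM against 0.982 over 6.79 to 16.2 CPM (1.10, interval 0.18 to 2.01), and Dio2, the tanycyte enzyme that activates thyroid hormone, had a value of 0.53. Their median was 0.05 in batch A, with 0 at that p, and 0.66 in batch B, with 6 higher. All 15 choroid plexus genes had a value above 0 (median 0.73), with Calml4 at 1.11 and Sostdc1 at 1.69 higher at an unadjusted p under 0.05. Their sum ran from 196 to 4170 CPM in RYGB-treated and from 256 to 944 CPM in PYY3-36 + liraglutide-treated animals, with medians of 300.3 and 317 CPM. Without RYGB replicates 2, 3, 6, 8 and 13, the value was -0.26 for Sostdc1 and -1.60, in place of 2.10, for Ttr, the abundant thyroid hormone carrier of the choroid plexus. All 18 meningeal genes had a value above 0 with both batches in the fit (median 0.43, 1 higher, Mgp 0.96 and Slc47a1 1.40). Within batch A 11 of them were above 0 (median 0.09), and within batch B 13 were (median 0.28). Their sum ran from 590 to 20930 CPM, the highest in RYGB replicate 3, and from 465 to 9041 CPM. In batch A, the median sum was 2818 CPM in RYGB-treated and 3132 CPM in PYY3-36 + liraglutide-treated animals. Of 19 collagen genes, 1 was higher (Col15a1 0.69, interval 0.09 to 1.30, and Col5a2 0.26), with a median of 0.48 in batch B against 0.01 in batch A. The 9 haemoglobin and other blood genes had a median of -0.68 (Hba-a1 -1.08 and Hbb-b1 -0.90), with sums of 7.89 to 393 and 15.7 to 622 CPM. That direction rested on PYY3-36 + liraglutide replicate 4, which had the highest sum and without which Hba-a1 was at 0.43 and Hbb-b1 at 0.82. Batch A gave a median of -1.32 for the list, and batch B one of 0.31 with 7 of 8 genes tested above 0.

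Striatal markers had values below 0 for all 14 genes with both batches in the fit, with a median of -0.74, and 1 was lower at an unadjusted p under 0.05 (Pde10a). Within batch B, 13 of the 14 were lower at that p (median -1.88), and within batch A 0 were (median -0.44). Of all genes in batch B, 7.35% were lower at that p. Adora2a, the adenosine receptor of striatal neurons, ran from 4.36 over 7.14 to 25.7 CPM in RYGB-treated and from 6.29 over 49.4 to 129 CPM in PYY3-36 + liraglutide-treated animals (-1.5, interval -3.01 to 0.01). The highest values lay in PYY3-36 + liraglutide replicates 6, 9, 7 and 8 of batch B, at 129, 90.5, 70.5 and 70.5 CPM, whereas replicate 10 of the same batch had 6.86 CPM. The summed striatal level was 580 to 612.5 CPM in the 3 RYGB-treated and 565 to 2761 CPM in the 5 PYY3-36 + liraglutide-treated animals of batch B. Of 15 general neuronal genes, 1 was lower, the GABA transporter Slc32a1 (-0.50, interval -0.96 to -0.04), next to the GABA-synthesising Gad1 (-0.39, interval -0.81 to 0.03). The lists of thalamus and habenula (16 genes, median 0.20, Gbx2 -0.92 and Rgs16 0.45) and of cortex and hippocampus (14 genes, median -0.05, Cux2 -0.37 and Camk2a -0.58) had no gene at that p. The fitted median of the cortical list turned with the batch, at 0.47 for batch A and -0.76 for batch B, where 5 genes were lower at that p. RYGB replicate 6 of batch A held the highest sum of these genes, 3593 CPM. The median sum of RYGB-treated animals in its batch was 492 CPM, below the 528 CPM of PYY3-36 + liraglutide-treated animals. The part of this library in the positive fitted median was not tested. Of the 23 hypothalamic factors, 1 was higher, Tbx3, a factor of arcuate neurons, with 3.29 over 6.12 to 27.2 CPM against 2.71 over 4.24 to 10.6 CPM (1.09, interval 0.25 to 1.93).

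The smallest p-values among genes with a log2 fold change over 1 belonged to genes that were high in a few RYGB libraries. Gabra6 (chromosome 10, 27847447 to 27862896), a GABA receptor subunit of cerebellar granule cells, reached 65.2 CPM in RYGB replicate 3 and 11.6, 10.8 and 6.30 CPM in replicates 6, 2 and 13. It was at 1.24 CPM or lower in the other 10 RYGB-treated animals and between 0.0446 and 1.31 CPM in PYY3-36 + liraglutide-treated animals. Its log2 fold change was 3.86 (SE 0.94, interval 1.98 to 5.74, unadjusted p = 0.00012), and -0.03 without RYGB replicates 2, 3, 6, 8 and 13, which include the 4 libraries in which it was high. Pcp2, a gene of Purkinje cells, followed the same libraries, with 22.2, 4.84 and 4.71 CPM in RYGB replicates 3, 6 and 2 (3.43, interval 1.65 to 5.21, and 0.71 without the same 5 libraries). The progenitor factor Hes3 ran from 0.0318 over 0.319 to 7.03 CPM and from 0 over 0.102 to 0.575 CPM (2.81, interval 1.33 to 4.30, and 1.44 without those libraries).

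Hepatic genes made up the rest of that group. Ambp (chromosome 5, 78975690 to 78986021), the precursor of a plasma proteinase inhibitor, had 3.71 CPM in RYGB replicate 8 and 1.43 CPM in replicate 13, at most 0.0511 CPM in the other RYGB-treated animals and 0 in 9 of 10 PYY3-36 + liraglutide-treated animals. Gc, which encodes the vitamin D-binding protein of plasma, and the major urinary protein genes Mup5, LOC259244 and LOC103695253 had a median of 0 in both groups and reached 5.05, 8, 3.49 and 5.59 CPM in RYGB-treated animals. LOC103695253 was at 0 in all PYY3-36 + liraglutide libraries. The fitted fold changes of these 5 genes depend on the prior count and are not given, and the major urinary protein genes are near-identical copies that share reads. Of the 17 hepatocyte genes, 13 were higher at an unadjusted p under 0.05, and of the 9 cerebellar genes, 5 were, but both lists were written after these leading genes had been seen. The 4 genes called by DESeq2 were Gabra6, Pcp2, Serpina3c and Fshb, of which the last pair was at 0 in all PYY3-36 + liraglutide libraries and reached 2.35 and 0.489 CPM in RYGB-treated animals.

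Lower genes had smaller differences. LOC108353026, LOC102550696 and LOC102551957, which have no assigned function, had medians of 0.0367, 0.0161 and 0.315 CPM in RYGB-treated and 0.212, 0.0843 and 0.680 CPM in PYY3-36 + liraglutide-treated animals (-1.68, -1.95 and -1.27). Wfs1 (chromosome 14, 78640707 to 78665224), an endoplasmic reticulum protein whose loss causes Wolfram syndrome, ran from 27.5 over 43.1 to 95.3 CPM and from 20.5 over 136 to 279 CPM (-1.27, SE 0.53, interval -2.33 to -0.21). Akap5, an anchor of protein kinase A at synapses, ran from 2.03 over 9.91 to 19.3 CPM and from 3.38 over 28.0 to 59.8 CPM (-1.49, interval -2.70 to -0.27). The Ras activator Rasgrp4 (-1.25), the cartilage collagen Col9a1 (-1.13) and the procollagen protease Adamts3 (-1.16) also overlapped between groups. Wfs1 and Akap5 were highest in PYY3-36 + liraglutide replicates 6 and 8, which were also among the highest in Adora2a, and with the striatal score as a covariate their values were -0.37 and -0.66.

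The number of genes called differed between batches. Within batch A, 0 of 20208 genes were called (0% higher and 0% lower), with 156 at an unadjusted p under 0.05 and 0 called by DESeq2. Within batch B, with 3 RYGB-treated and 5 PYY3-36 + liraglutide-treated animals, 22 of 19230 genes were called, 16 higher (0.0832%) and 6 lower (0.0312%). At an unadjusted p under 0.05, 1626 genes were higher (8.46%) and 1414 lower (7.35%), and DESeq2 called 452 genes. The number called fell or rose widely when single animals were left out. The count was 7, 1 and 2 without RYGB replicates 12, 13 and 14, 1 each without PYY3-36 + liraglutide replicates 6, 7 and 8, 157 without replicate 9 and 469 without replicate 10. The difference between batches, tested as an interaction, reached an adjusted p under 0.05 for 0 of 21871 genes in edgeR, with 747 at an unadjusted p under 0.05, and was not tested with another tool.

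The 16 higher genes of batch B included Agrp, Galp, Tbx3 and Foxb1, and both groups of that batch did not overlap for these genes. With 3 against 5 animals, 1248 of 21871 genes (5.71%) lay wholly above the other group in RYGB-treated animals and 1060 (4.85%) wholly below. Of the 23 hypothalamic factors, 9 were higher and 3 lower at an unadjusted p under 0.05 in batch B (median 1.17), and 0 in batch A (median 0.09). Of all genes in batch B, 8.46% were higher and 7.35% lower at that p. Agrp was 5.49, 6 and 10.6 CPM in the 3 RYGB-treated and 0.536, 0.288, 0.698, 1.84 and 0.705 CPM in the 5 PYY3-36 + liraglutide-treated animals. Its log2 fold change was 3.14 with an SE of 0.48 and an adjusted p of 0.0497 in edgeR's quasi-likelihood test, against 0.69 (SE 0.94) in batch A, and the interaction had an unadjusted p of 0.0999. Galp, which encodes a galanin-like peptide of the arcuate nucleus, was 2.31, 3.04 and 4.85 CPM in RYGB-treated animals and at most 0.329 CPM in the other group (4.57, SE 0.72), against 0.33 (SE 1.2) in batch A. The highest Galp of batch A lay in libraries that were high in Cga. It was 3.625, 3.789 and 5.203 CPM in RYGB replicates 1, 3 and 9, and 1.936 and 3.025 CPM in PYY3-36 + liraglutide replicates 2 and 5. Tbx3 was 10.2, 11.6 and 23.2 CPM against 2.71 to 4.11 CPM (2.13, SE 0.26), and 0.58 (SE 0.52) in batch A. Foxb1, a factor of the mammillary region, was 8.70, 11.6 and 7.86 CPM against 0.848 to 3.76 CPM (2.52, SE 0.42), and 0.17 (SE 0.51) in batch A. In the same 3 RYGB libraries Cga was 8.66, 66.8 and 351 CPM, against 0 to 2.79 CPM in the 5 PYY3-36 + liraglutide libraries, and its log2 fold change of 7.56 did not pass the adjusted threshold (adjusted p = 0.0813).

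Further genes called in batch B were Ada, which encodes adenosine deaminase (2.07), the complement protease C1s (1.56), the retinol-esterifying enzyme Lrat (3.06), the matrix gene Mamdc2 (2.15) and the apolipoprotein Apoc3 (3.36) on the higher side. On the lower side were the actin regulator Wasf1 (-1.05) and LOC100362965 (-1.81), which had the smallest adjusted p, 0.00451. In batch A, the values of these genes were 0.69 for Ada, 0.04 for C1s, 0.45 for Lrat, 0.14 for Mamdc2, 2.06 for Apoc3, -0.02 for Wasf1 and -0.45 for LOC100362965. The genes named from batch B were picked after their values were seen.

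**Figure D5:**
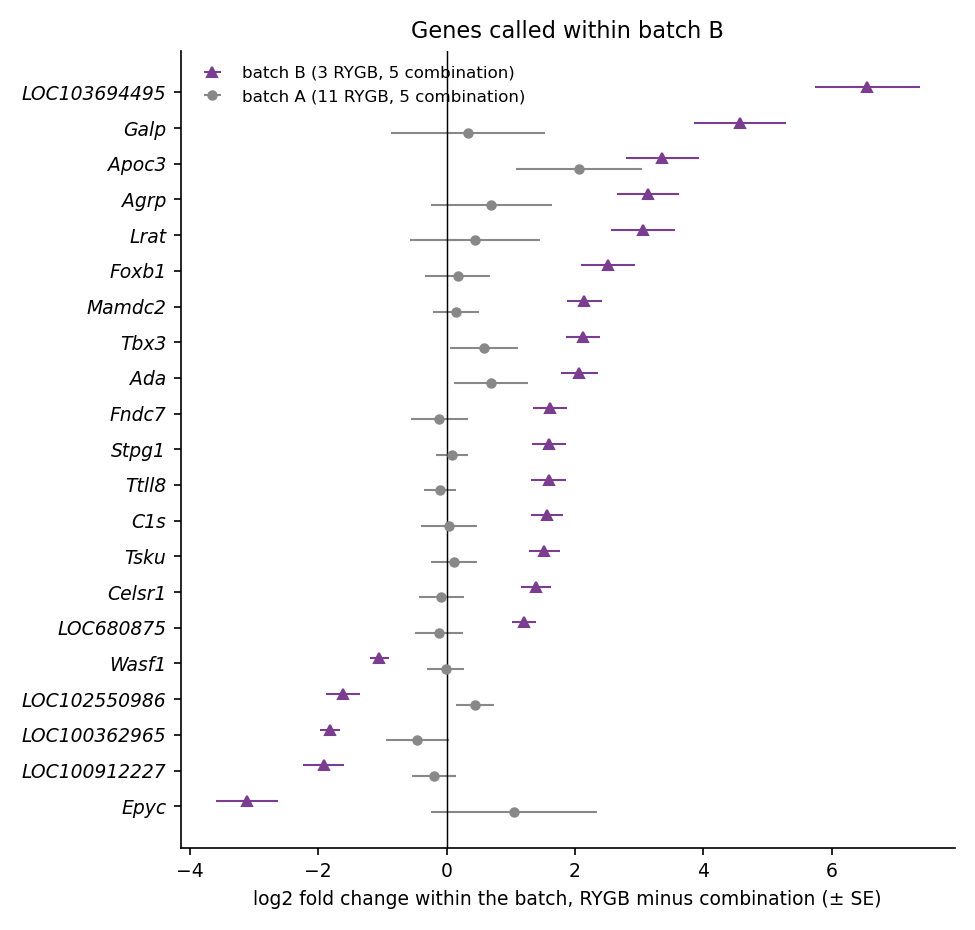
Log2 fold change with its SE, RYGB minus PYY3-36 + liraglutide, for 21 of the 22 genes called within batch B (purple triangles) and the value of the same genes within batch A (grey circles, absent where a gene was not tested there). The genes were chosen by their values in batch B, so values nearer 0 in batch A, such as 0.69 against 3.14 for Agrp, follow in part from that choice, and the interaction reached an adjusted p under 0.05 for 0 genes.

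Each treatment was also set against its own control. The difference between RYGB minus sham and PYY3-36 + liraglutide minus saline called 0 of 21871 genes (0% higher and 0% lower), with a smallest adjusted p of 0.184 in edgeR, 1465 genes at an unadjusted p under 0.05 and 9 genes called by DESeq2. Sham-operated and saline-treated animals differ by the procedure and not by a treatment. Between them 2 genes were called, Scube1 (-1.88, SE 0.31) and Nwd2 (-1.79, SE 0.34), both lower in sham-operated animals (0% higher and 0.00914% lower). Nwd2 is a member of the list of thalamus and habenula. The part of neighbouring tissue in this difference between the controls was not tested. In edgeR, 3 genes passed the adjusted p alone. An unadjusted p under 0.05 was reached by 2812 genes between these controls and by 565 in the direct comparison. Neither is a count of changed genes. Between RYGB-treated and PYY3-36 + liraglutide-treated animals, Scube1 and Nwd2 had values of 0.10 (SE 0.27) and -0.15 (SE 0.29).

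The number of genes called for either treatment differed with the control group. Compared with sham-operated animals, 437 genes were higher (2%) and 81 lower (0.37%) in RYGB-treated animals, and 436 were higher (1.99%) and 60 lower (0.274%) in PYY3-36 + liraglutide-treated animals. Both comparisons share the 11 sham-operated animals. Compared with saline-treated animals, each treatment had 0 higher genes (0%) and the same lower gene (0.00457%), Gpr151, a receptor of habenular neurons, at -7.03 (SE 1.34) and -7.73 (SE 1.28), and these comparisons share the saline-treated animals. Gpr151 had at most 0.294 CPM in either treated group. It is also a member of the list of thalamus and habenula, and the part of that tissue in these comparisons was not tested. Of 19 genes the study singled out on these samples, 7 reached an adjusted p under 0.05 against sham-operated animals under at least 1 treatment in edgeR, and their values are given side by side, which is no independent evidence of their direction. Against sham-operated animals, the log2 fold change in RYGB-treated and in PYY3-36 + liraglutide-treated animals was 2.79 and 2.68 for Glra3, 1.74 and 2.13 for Htr2a, 0.97 and 1.07 for Insr, 1.39 and 1.01 for Lepr, 1.48 and 1.12 for Prlr, 0.77 and 0.86 for Htr5a and -0.25 and -0.28 for Sdhd. Against saline-treated animals the same values were 1.02 and 0.91, 0.44 and 0.83, 0.25 and 0.35, 0.11 and -0.27, 0.38 and 0.03, 0.10 and 0.18, and -0.04 and -0.08. The other 12 genes had values against sham-operated animals from -0.75 (Mc4r) to 1.45 (Npy4r) after RYGB and from -0.57 (Tph2) to 1.17 (Npy4r) after PYY3-36 + liraglutide. Of the 7 genes, Glra3 and Htr2a passed both thresholds against sham-operated animals under either treatment, as did Lepr and Prlr after RYGB and Insr after PYY3-36 + liraglutide, and the direct difference between both treatments was at an adjusted p of 1 for all of them.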

How the data were processed

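Sequencing of poly-A RNA, stranded libraries and single-end reads are as described by the study. Per the labels, the authors used bcl2fastq 2.20.0.422, cutadapt, STAR 2.7.2b, featureCounts 1.6.4 and Rnor_6.0. The authors deposited estimated counts per gene: reads with several places or genes were shared as fractions, and 30.7% of nonzero values were not whole (tolerance 1e-06). They were rounded. Genes were kept by filterByExpr (minimum count 10, minimum total 15), scaled by TMM and fitted for all 65 samples with group and batch in edgeR 4.0.16 (R 4.3.3). The quasi-likelihood test gave p-values, adjusted by Benjamini-Hochberg over all genes. Called means p < 0.05 after adjustment with a log2 fold change beyond ±1. DESeq2 1.42.0 and limma 3.58.1 were alternatives, with other scalings, filters, covariates and samples left out. The test was checked on simulated data. Gene lists were matched by symbol or synonym, and samples were grouped by their labels, 1 animal each. P-values measure the spread between animals. Intervals cover 95%, and counts of 23043055 to 36539941 per animal limit low genes. Genes named were the 8 of each direction with the smallest p and a log2 fold change beyond ±1, the 22 core feeding genes, the 2 smallest p-values of each list and genes the study singled out. Others were picked after their values were seen. Members and lists were chosen with earlier results of these data known, and the hepatocyte and cerebellar lists after the leading genes were seen. Coordinates are those of the deposited table. A few genes are not reported here.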

Additional observations from a re-analysis of the deposited data

Results flagged for a closer look

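Within the 10 PYY3-36 + liraglutide-treated animals, and within the 5 of each batch, single animals stood far from the others for some of the genes named, by Dixon's test on log2(CPM + 1). Of 378 sets of values tested, 39 stood out, and chance gives about 1 in 20. The RYGB-treated animals were too many or too few in a batch for this test. Replicate 10 was the highest for Col15a1 (3.43 CPM, next 2.16, batch B) and Gpr151 (0.282 CPM, next 0.123, all 10). Replicate 10 was the lowest for Grm5 (16.2 CPM, next 37.4 and 68.1, all 10 and batch B), Htr5a (2.58 CPM, next 4.95, all 10), Prkar2b (82.7 CPM, next 145, batch B), Akap5 (3.38 CPM, next 30.2, batch B), Adamts3 (3.19 CPM, next 14.2, batch B), Wfs1 (20.5 CPM, next 154, batch B), Htr2a (0.423 CPM, next 5.65, batch B), Camk2a (36.9 CPM, next 129, all 10) and Adora2a (6.86 CPM, next 70.5, batch B). Replicate 9 was the highest for Ffar4 (0.403 CPM, next 0.174, all 10), Lrat (1.24 CPM, next 0.392, batch B), Tshb (1.01 CPM, next 0, batch B), Cga (2.79 CPM, next 0.262, batch B), Glp2r (0.23 CPM, next 0.047, batch B) and Kiss1 (1.32 CPM, next 0.174, batch B). Replicate 8 was the highest for Scube1 (5.45 CPM, next 3.69, batch B) and Pcp2 (0.785 CPM, next 0.336, all 10). Replicate 8 was the lowest for Oxt (25.9 CPM, next 445, batch B) and Avp (2.35 CPM, next 138 and 309, all 10 and batch B). Replicate 3 was the highest for LOC102550696 (0.75 CPM, next 0.201, batch A) and Trh (217 CPM, next 135, batch A). Replicate 3 was the lowest for Pmch (27.5 CPM, next 793, batch A) and Hcrt (4.26 CPM, next 85.5, batch A). Replicate 1 was the highest for Dpp4 (5.95 CPM, next 1.88, all 10) and Ambp (0.0288 CPM, next 0, all 10 and batch A). Replicate 6 was the highest for LOC102550696 (0.357 CPM, next 0.0864, batch B), Dusp1 (55.1 CPM, next 33.8, batch B) and Gc (0.134 CPM, next 0, batch B). Replicate 4 was the highest for Hbb-b1 (22.2 CPM, next 1.88, batch A) and Hba-a1 (4.52 CPM, next 0.235, batch A). Replicate 7 was the highest for Hes3 (0.575 CPM, next 0.174, all 10) and Sostdc1 (3.95 CPM, next 1.05, all 10). Replicate 2 was the lowest for Xbp1 (94.5 CPM, next 103, batch A). Replicate 5 was the lowest for Pik3r1 (76.1 CPM, next 88, batch A).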

How the results depend on the processing

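Leaving out 1 animal at a time left 0 called genes in the direct comparison and in batch A, and gave 1 to 469 in batch B. The direct count of 0 became 22 within batch B, 4 with DESeq2, 1 with shrunken fold changes and 10 with the striatal score as a covariate, an alternative chosen after seeing the data. Leaving out RYGB replicates 2, 3, 6, 8 and 13 was also chosen after seeing the data. It stayed 0 under the other alternatives tried. DESeq2 called 9 genes for the difference between both control-corrected effects, 18 for sham against saline and 452 within batch B. Sham against saline gave 4 genes without the batch term. The causes were not tested. The replicate numbers of the labels did not pair the samples: of 10 same-numbered pairs, 4 correlated above 0.1 (from -0.323 to 0.355) and 1 sample correlated best with its own number. With the replicate block, 0 genes were called in the direct comparison, with 161 at an unadjusted p under 0.050, 0 for the control-corrected difference and 0 for sham against saline. Counts at low levels, such as those of Glp2r, Npy4r, Ucn and Mrap, limit what can be seen at this depth.

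None of the single genes passed the threshold in the direct comparison, and those whose sign turned are listed by log2 fold change. Within batch A, they were Gal -0.020, Avp -0.16, Calcr -0.064, Abcc9 -0.052, Sdhb 0.078, Tph2 0.029, Scube1 -0.22, Htr1b 0.050, Glra1 -0.085, Acacb -0.10, Sdhc 0.080, Hr -0.034, Npy4r -0.11, Npy5r 0.10, Glp1r -0.021. Within batch B, they were Hbb-b1 0.20, Npy2r 0.25, Dpp4 -0.78, Npy -0.17, C1qb -0.024, Nr4a1 -0.74, Sdhd -0.31, Mobp -0.072, Trem2 -0.057, Dusp1 -0.19, Insr 0.19, Npy1r -0.090, Ttr -0.11, Ndufb11 -0.0084. With DESeq2, they were Sdhb 0.013, Sdhc 0.0046. With DESeq2 and shrinkage, they were Ffar4 -0.0064, Npy2r 0.0018, Fshb -0.0095, Sdhb 0.0098, Sdhc 0.00048, Gpr151 -0.043. With limma-voom, they were Ffar4 -0.0076, Npy2r 0.085, Oxt 0.056, Htr5a 0.040, Npy -0.069, Ucn 0.11, Pmch 1.51, Sdhd -0.080, Htr1b 0.046, Mobp -0.089, Hcrt 0.66, Insr 0.060, Ttr -0.12. With RLE size factors, they were Sdhb 0.013, Sdhc 0.0047. Without a filter, they were Sdhb 0.0051. With a stricter filter, they were Sdhb 0.0099, Sdhc 0.0022. In the 24 samples alone, they were Npy2r 0.052, Avp -0.045, Sdhb 0.012, Sdhd -0.00082. Without the batch term, they were Npy -0.010, Ucn 0.0020, Sdhd -0.14, Insr 0.10. With pituitary, choroid plexus and meningeal scores as covariates, they were Galp -0.18, Gal -0.13, Ffar4 -0.11, Cartpt -0.12, Htr5a 0.014, Calcr -0.16, Sdhb 0.029, Sostdc1 -0.029, Htr1b 0.030, Socs3 -0.0098, Sdhc 0.034, Npy5r 0.027, Ttr -0.82, Gpr151 -0.37, Glp1r -0.082. With the ribosomal protein score, they were Npy2r 0.018, Avp -0.28, Htr5a 0.083, Sdhd -0.057, Htr1b 0.10, Mobp -0.10, Insr 0.10. With the striatal score, they were Gal -0.40, Cartpt -0.028, Prlr -0.12, Bdnf -0.19, Avp -0.27, Mc3r -0.060, Htr5a 0.032, Calcr -0.41, Trh -0.37, Htr1b 0.13, Glra1 -0.18, Htr2a 0.045, Npy4r -0.13, Npy5r 0.10, Glra3 -0.047. Without RYGB replicates 2, 3, 6, 8 and 13, they were Npy2r 0.069, Sdhb 5.0e-05, Ucn 0.15, Sostdc1 -0.26, Gabra6 -0.026, Sdhc 0.00032, Ttr -1.60. With the replicate block, they were Galp -0.97, Gal -0.26, Scd2 -0.022, Cartpt -0.54, Lrat -0.50, Prkab2 0.026, Avp -0.23, Htr5a 0.30, Calcr -0.14, Htr1b 0.093, Mobp -0.25, Glra1 -0.29, Acacb -0.031, Nwd2 7.4e-05, Htr2a 0.26, Npy5r 0.15, Glra3 -0.13, Camk2a 0.22, Agrp -0.22, Glp1r -0.54, Ndufb11 -0.014. When 1 animal was left out at a time, these genes ranged over Hbb-b1 -1.26 to 0.82, Npy2r -0.16 to 0.021, Oxt -0.35 to 0.10, Avp -0.25 to 0.59, Sdhb -0.054 to 0.025, Ucn -0.28 to 0.20, Pmch -0.92 to 0.68, Sdhd -0.038 to 0.072, Mobp -0.050 to 0.31, Hba-a1 -1.30 to 0.43, Hcrt -1.21 to 0.53, Sdhc -0.067 to 0.017, Npy1r -0.021 to 0.078, Npy5r -0.15 to 0.038, Ttr -0.70 to 2.87.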
